A study of Mus musculus with 16 samples.

Results

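Reference genes are mRNAs whose level is taken as steady, so that the level of other mRNAs can be divided by it. Those studied here are Gapdh, Actb, Actg1, Tbp, Hprt, B2m, Ppia, Ywhaz, Gusb and Sdha, which are in common use, read in libraries of CPEB4-bound and of total RNA from mouse macrophages. CPEB4 belongs to a family of regulators that bind the cytoplasmic polyadenylation element (CPE) of an mRNA and control the length of its poly(A) tail, its translation and its decay. In an RNA immunoprecipitation (RIP) an mRNA without CPEB4 binding serves as negative control, and in RT-qPCR of mRNA levels a reference gene is the denominator. A reference gene that CPEB4 binds, that responds to the stimulus, or whose reads are shared with processed pseudogenes (genomic copies of a spliced mRNA) would not serve either use. Members were found by gene symbol. They took 25 of the 30622 table rows with a symbol, which are 22 distinct 3′-UTR regions of 10 genes among 26860 distinct regions of 14925 genes.

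The cells were bone marrow-derived macrophages (BMDMs), grown from femur marrow of adult mice of a mixed C57BL/6J and 129 background with L-cell conditioned medium. Wild-type cells (WT, numbered 76 in the sample titles) and cells with total knockout of Cpeb4 (KO, numbered 73) were kept untreated or given LPS. LPS is the endotoxin of Gram-negative bacteria and was given at 10 ng/ml for 9 h. The titles do not say what the numbers mark, and each is taken here as 1 culture. From each genotype and treatment a lysate sample (Input) and an anti-CPEB4 RIP were sequenced, after formaldehyde crosslinking and sonication. Ribosomal RNA was depleted from the Inputs. The 16 samples are 8 libraries run on lanes 7 and 8, and the deposited tables hold 1 count column per library, so each combination of genotype, treatment and assay is 1 library. No difference below has a replicate check. Tests and intervals cover counting error in these libraries only, and a test compares 2 libraries rather than 2 conditions. Where a biological coefficient of variation of 0.2 between cultures was assumed in an edgeR exact test, at most 1 member was called in any of the 12 comparisons.

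The libraries held from 467696 (KO RIP, untreated) to 2492300 (WT RIP, LPS) 3′-UTR reads, so that an absent region could still have up to 6.41 CPM in the shallowest library and 1.20 CPM in the deepest, 3 reads each. CPM is a region's count multiplied by 1000000 and divided by these totals. These reads were 46.4% to 51.1% of the library total in the Inputs, 48.9% and 70.1% in the WT RIPs and 27.3% and 31.8% in the KO RIPs. The 4102-base 3′-UTR of Cpeb4, the targeted gene, had 130 and 136 CPM in the WT Inputs and 52.0 and 52.6 CPM in the KO Inputs. It had 836 and 770 CPM in the WT RIPs and 257 and 367 CPM in the KO RIPs, so it was also recovered without the antigen. The 8 macrophage markers were all read in every library. Summed markers of T cells, B cells, dendritic cells and stroma came to at most 8.55 CPM in any library for each list, 4 reads in the untreated KO RIP, and the 6 LPS response markers summed to 40.7 to 53.8 CPM in the untreated and 2062 to 2296 CPM in the LPS-treated Inputs. Of the neutrophil markers none has a row in the table, so that cell type was not checked.

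The members differ in the sequence that CPEB4 could meet and in how uniquely a read can be placed. The deposited motif counts equalled the number of TTTTAT and TTTTAAT matches on the transcript strand in 100% of distinct regions, read from GRCm38.p6, which has the coordinates of mm10. At least 1 such consensus CPE was present in 47.4% of regions, and 18.6% had the spacing of CPEs that the authors' prediction lists as repression. Tbp, Hprt, Ywhaz and Actb had that prediction. The windows are 24 bases of the 3′-UTR, 5′ to 3′, with the CPE or, once, the polyadenylation hexamer in capitals, and they were chosen from the members with that prediction, whose recovery in the RIP is compared below.
Tbp, first CPE, chr17:15517105-15517128, + strand: acttttcaTTTTAATctttcccac
Tbp, second CPE, chr17:15517130-15517153, + strand: caagccagtTTTTATatttctacc
Hprt, CPE, chrX:53021440-53021463, + strand: aattggtaTTTTAATttttatata
Ywhaz, hexamer, chr15:36771710-36771733, - strand: tgtaagtggAATAAAagttttatg
Ywhaz, CPE, chr15:36771702-36771725, - strand: gaataaaagTTTTATgaatggact
Actb, CPE, chr5:142903270-142903293, - strand: atttttgtTTTTAATttctgaatg

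Tbp had its pair of CPEs within the 644-base 3′-UTR, 308 and 283 bases before its end, and no hexamer in that region. Hprt had 4 consensus CPEs and 3 hexamers in 545 bases. Ywhaz had 6 consensus CPEs and 3 hexamers in 1948 bases, and in the windows shown its CPE closely follows a hexamer. Actb had 2 consensus and 3 non-consensus CPEs in 683 bases, and Sdha had 1 consensus CPE in 833 bases. No consensus or non-consensus CPE was present in the main regions of Gapdh, Actg1, Ppia, B2m and Gusb. The form TTTTGT, which the study also took as a CPE, was not searched. The 1236-base region of Gusb, which is not its main region, had 2 consensus CPEs and a prediction of activation. A match of these letters is not a binding site by itself.

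Copies of the members' 3′-UTRs elsewhere in the genome differed from none to over 200. Copies were aligned stretches of at least 90% identity over at least 50% of a region. The 179-base 3′-UTR of Gapdh, which encodes the glycolytic enzyme glyceraldehyde-3-phosphate dehydrogenase, had 206 other loci, 184 of them at annotated pseudogenes. All 80 of its 100-base windows, the length of a read, had an exact copy elsewhere, and the copies included the complete region at the pseudogenes Gm12033, Gm5559 and Gm13394. Ppia, which encodes cyclophilin A, had 41 other loci, and 98.1% of its windows had an exact copy. Actg1, which encodes cytoplasmic gamma-actin, had 10 other loci, of which the pseudogene Gm12715 was 99.9% identical over the whole 700 bases, and 99.7% of its windows had an exact copy.

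Ywhaz, which encodes the 14-3-3 protein zeta, was unique in part. The pseudogene Gm4202 was 99.3% identical to the stretch of its 3′-UTR next to the stop codon, and 36.1% of windows had an exact copy. Actb, which encodes cytoplasmic beta-actin, had 1 copy of 91.0% identity and no exact window. No copy was found for Tbp (644 bases), Hprt, Sdha or Gusb. Reads of Gapdh, Ppia and Actg1 over these regions could therefore not be placed uniquely, and how reads with several equal places were treated is not given in the sources used here. The part of this in any level below was not tested.

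The RT-qPCR primers listed by the study for the reference genes Gapdh and Tbp show the same contrast in number of copies. They are printed because a primer that matches pseudogenes cannot tell cDNA from genomic DNA by sequence.
Gapdh, forward primer: cttcaccaccatggaggaggc
Gapdh, reverse primer: ggcatggactgtggtcatgag
Tbp, forward primer: agaacaatccagactagcagca
Tbp, reverse primer: gggaacttcacatcacagctc

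The Gapdh reverse primer matched 61 places of GRCm38.p6 exactly, none of them in the Gapdh gene itself and 58 in annotated pseudogenes, and it was found in 4 of 13 annotated Gapdh transcripts. The forward primer matched 2 pseudogenes exactly and no Gapdh transcript exactly. Its closest transcript match had 1 mismatch, G17A, with the primer's base first and positions counted from its 5′ end. The pair faced each other at 1 pseudogene locus, with a product of 243 bases. Each Tbp primer matched once, at chr17:15514233-15514254 and chr17:15514332-15514352, with a genomic product of 120 bases in the Tbp gene itself. Neither pair is thus free of a possible product from genomic DNA. Whether genomic DNA reached any RT-qPCR was not tested.

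The table itself holds unlike regions under these symbols. B2m, the light chain of MHC class I, was represented by 15 bases (chr2:122151661-122151675), the 3′-UTR part of an exon that ends there. Its 433-base last exon (chr2:122152651-122153083 in GENCODE M21) had no row. B2m therefore had only 2 to 16 reads per library, and no value below is informative for it. Tbp, which encodes the TATA-binding protein of the general transcription machinery, had a 644-base 3′-UTR shared by 3 transcripts (chr17:15516784-15517427) and an 11596-base region of 1 transcript (chr17:15516784-15528379). The long region runs across the whole Pdcd2 gene on the other strand, whose exons cover 22.3% of it. It had the most reads of the Tbp regions and stands for the gene where 1 region per gene was counted, and the 644-base region is given beside it. Gusb, a lysosomal beta-glucuronidase, had 3 regions. The 507-base region had the most reads and stands for the gene, and the 1236-base and 432-base regions overlap each other elsewhere in it.

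Levels per length were set side by side between genes. Those of Gapdh, Ppia and Actg1 come from reads that could not be placed uniquely, so their places in this order are uncertain. In the 4 Inputs Actb was highest, with 1700 to 2362 CPM per kb of region, followed by Actg1 with 622 to 836. Ywhaz (238 to 441) and Ppia (234 to 315) overlapped each other. Gusb (114 to 308) overlapped Ppia and Gapdh (59.0 to 162). Sdha (45.6 to 60.7) and Hprt (37.9 to 72.0), which encodes the purine salvage enzyme HPRT, also overlapped, and Tbp (644 bases) was lowest of these regions with 13.1 to 22.3. Reads that only overlap a region's edge count in full, so that short regions are overstated on this scale.

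**Figure D1:**
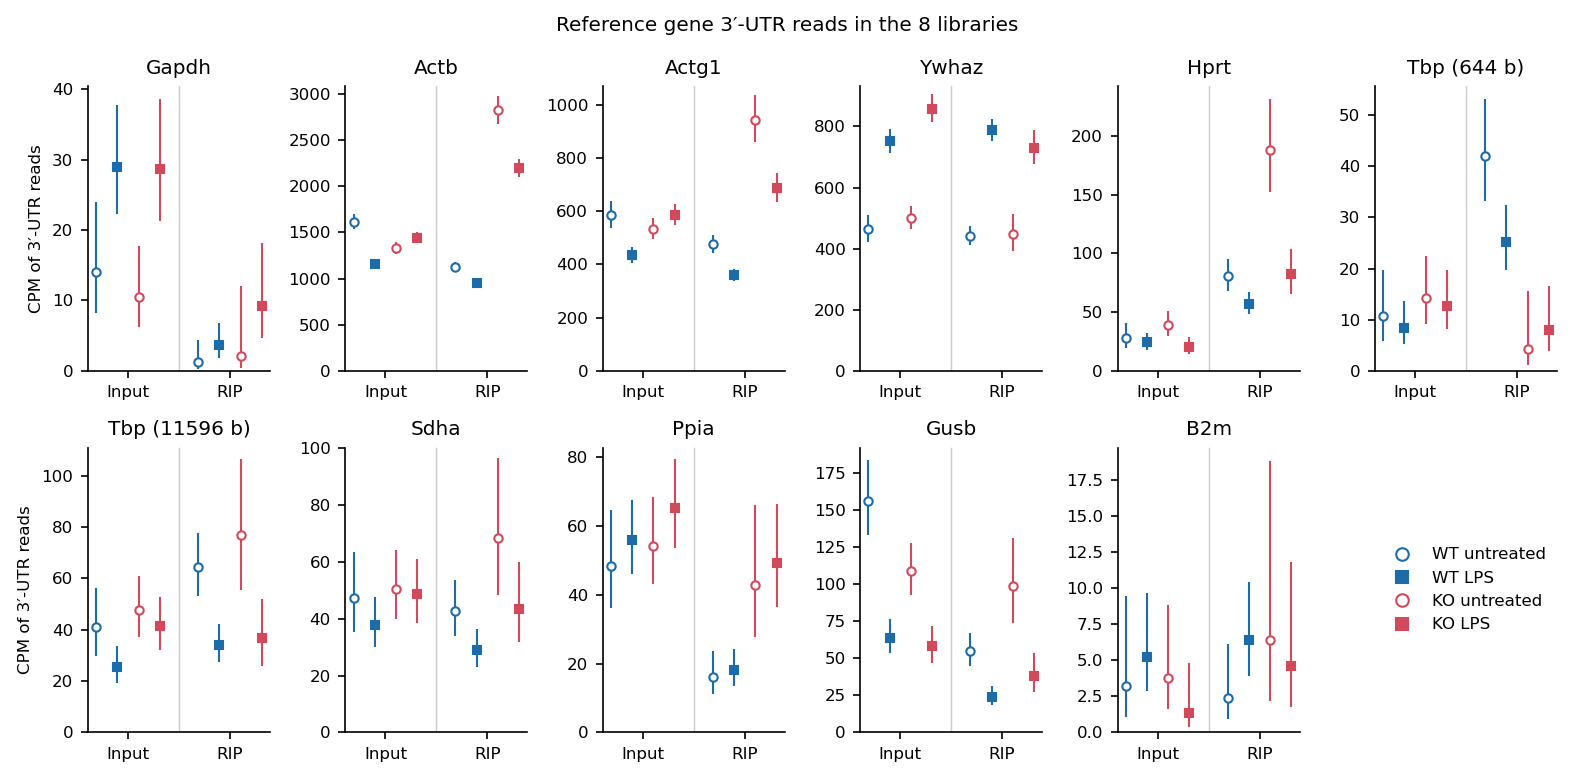
CPM (y axis, from 0, a scale of its own in each panel) of each reference gene in the 4 Inputs and 4 anti-CPEB4 RIPs, with bars for the 95% Wilson interval of counting error. Ywhaz is higher in all 4 LPS libraries, Gusb lower in all 4, and the 644-base 3′-UTR of Tbp is highest in the 2 WT RIPs.

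The WT and KO Inputs were compared first, since a normaliser should not differ between genotypes before the RIP. In untreated cells 0 of 9 members tested were called and with LPS 0 of 10, where 0.426% and 1.27% of all 3′-UTRs tested were called. A region was called with a Benjamini-Yekutieli adjusted p-value under 0.02 over all rows whose summed count was at least 10, together with a log2 ratio above 0.5 in size. At an adjusted p-value alone, Actb passed in both comparisons, in opposite directions. Actb had 1613.5 CPM (WT, 1499 reads) and 1329 CPM (KO, 1762 reads) untreated, and 1161 CPM (2203 reads) and 1439 CPM (2162 reads) with LPS. The WT was higher untreated (log2 ratio 0.28, 95% interval 0.18 to 0.38, adjusted p 9.12e-05) and lower with LPS (-0.31, -0.40 to -0.22, adjusted p 4.31e-09). Actg1 followed it with LPS (-0.43, -0.56 to -0.29, adjusted p 1.91e-06) and had a ratio of 0.13 (-0.03 to 0.29) untreated. The smaller members had wide intervals, as for Tbp (644 bases), with 10 and 19 reads untreated and a ratio of -0.35 (-1.41 to 0.71). A 2-fold difference of such a member could not be told from equality at this depth. One of the 3 Gusb regions, 1236 bases, was called with LPS, with 84 reads (WT) and 26 reads (KO) and a log2 ratio of 1.32 (0.69 to 1.94).

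LPS changed 2 of the 10 members in the WT Inputs and 2 of the 9 tested in the KO Inputs, the same 2 genes, where 22.5% and 26.2% of all 3′-UTRs tested were called. Ywhaz went from 464 CPM (431 reads) to 752 CPM (1427 reads) in WT cells and from 502 CPM (665 reads) to 859 CPM (1290 reads) in KO cells. Both LPS libraries lay above both untreated ones. Ywhaz rose 1.62-fold in WT cells (log2 ratio 0.69, 0.54 to 0.85) and 1.71-fold in KO cells (0.77, 0.64 to 0.91). Gusb went from 156 CPM (145 reads) to 63.8 CPM (121 reads) in WT cells and from 109 CPM (144 reads) to 57.9 CPM (87 reads) in KO cells. It fell in both genotypes, with log2 ratios of -1.29 (-1.64 to -0.94) and -0.90 (-1.28 to -0.52). The 1236-base Gusb region had -0.67 (-1.13 to -0.20) in WT cells, which was not called, and -1.58 (-2.21 to -0.94) in KO cells, which was.

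Gapdh, which was not called, had log2 ratios larger in size than Ywhaz in both genotypes and than Gusb in KO cells, from few reads. It went from 13 to 55 reads in WT cells, or 13.99 and 29.0 CPM, and from 14 to 43 reads in KO cells, or 10.6 and 28.6 CPM. The LPS libraries were higher in both genotypes, and the groups did not overlap. The log2 ratio was 0.97 (0.12 to 1.81, Benjamini-Yekutieli adjusted p 0.441) for WT and 1.37 (0.53 to 2.22, adjusted p 0.0265) for KO. Neither was called on these totals, and the KO ratio was called with library totals, TMM and median-of-ratios scaling. Setting an mRNA against Ywhaz, Gapdh or Gusb in place of Tbp, Sdha or Ppia thus gave another LPS response. The distance between 2 reference genes is the same for every target by construction. For Socs1, an inhibitor of cytokine signalling with 2 untreated reads, the WT Input response was taken as a log2 ratio. It was 4.55 (2.70 to 6.40) against Gapdh, 4.82 against Ywhaz, 5.33 against Ppia and 5.92 against Tbp (644 bases). It was 6.22 against the 11596-base region of Tbp and 6.81 (5.13 to 8.49) against Gusb, and the intervals against Gapdh and Gusb overlap. For Vegfa, a growth factor of blood vessels, it was -0.85 (-1.78 to 0.08) against Gapdh, -0.58 (-0.99 to -0.16) against Ywhaz, 0.59 (0.20 to 0.99) against Actb and 1.41 (0.89 to 1.93) against Gusb. The intervals against Ywhaz and Gusb lie on opposite sides of 0.

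Actb and Actg1 had different log2 ratios of LPS over untreated in the Inputs of the 2 genotypes, with 1 library per group. Both were lowest in the deepest Input (WT with LPS, 1897360 3′-UTR reads), and Actb was highest in the shallowest (untreated WT, 929054). The part of depth was not tested. From untreated to LPS, Actb had 1613.5 and 1161 CPM in WT cells against 1329 and 1439 CPM in KO cells, and Actg1 had 586 and 435 CPM against 535 and 585 CPM. The difference of the log2 ratios, WT minus KO, was -0.59 for Actb (-0.72 to -0.46, Benjamini-Hochberg adjusted p 1.72e-15) and -0.56 for Actg1 (-0.77 to -0.35, adjusted p 7.22e-05). It was tested from the read counts over 8424 distinct regions, of which 2.23% passed an adjusted p-value of 0.05. No other member passed. Summed, the macrophage markers also fell more in the WT than in the KO Inputs. In the KO their sum fell, where the CPM of both actins was higher with LPS. The 8 together went from 3537 to 2361 CPM in WT and from 2621 to 2418 CPM in KO cells, with median log2 ratios of -0.50 and 0.05, and their part in the difference of the actins was not tested. Both parts of the Actb 3′-UTR showed it, the 297 bases next to the stop codon (-0.38 for WT, 0.19 for KO) and the reads beyond them (-0.57 and 0.03).

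The pathways of the members were described from lists of related genes. Of 15 other glycolytic genes, 7 were called higher and 1 lower with LPS in the WT Inputs and 10 and 0 in the KO Inputs, with median log2 ratios of 0.51 and 1.05. Of all 3′-UTRs tested, 22.5% (WT) and 26.2% (KO) were called in either direction, with medians of -0.07 and -0.18, and each count here is to be read against these shares. Slc2a1, the glucose transporter GLUT1, and the hexokinase Hk2 were among them (2.66 and 2.17 in WT cells, 2.98 and 2.18 in KO cells). Of 15 genes of MHC class I presentation 7 rose and 0 fell in the WT, among them Nlrc5, a transactivator of MHC class I genes (1.92), and the immunoproteasome subunit Psmb9 (1.72). In the KO 9 rose and 1, the protein disulfide isomerase Pdia3, fell, and the list medians were 0.56 and 0.82. Of 14 lysosomal glycosidases, the enzymes related to Gusb, 0 rose and 5 fell in WT cells and 0 rose and 6 fell in KO cells, as for Hexa, a beta-hexosaminidase subunit (-1.23 and -1.07), with medians of -1.06 and -1.08. Of the other 14-3-3 genes related to Ywhaz 0 of 5 were called in the WT, and in the KO, with 6 tested, Ywhag rose (0.53) and Ywhah fell (-0.60). The medians of that list were 0.10 and 0.16. Of 13 genes of succinate dehydrogenase and the TCA cycle 0 were called in the WT. In the KO 2 of 11 rose, Sdhd, a membrane subunit of succinate dehydrogenase (0.89), and Sdhaf2, an assembly factor of that enzyme (2.13), and the medians were -0.20 and 0.17. Of 9 cyclophilins 0 were called in either genotype.

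**Figure D2:**
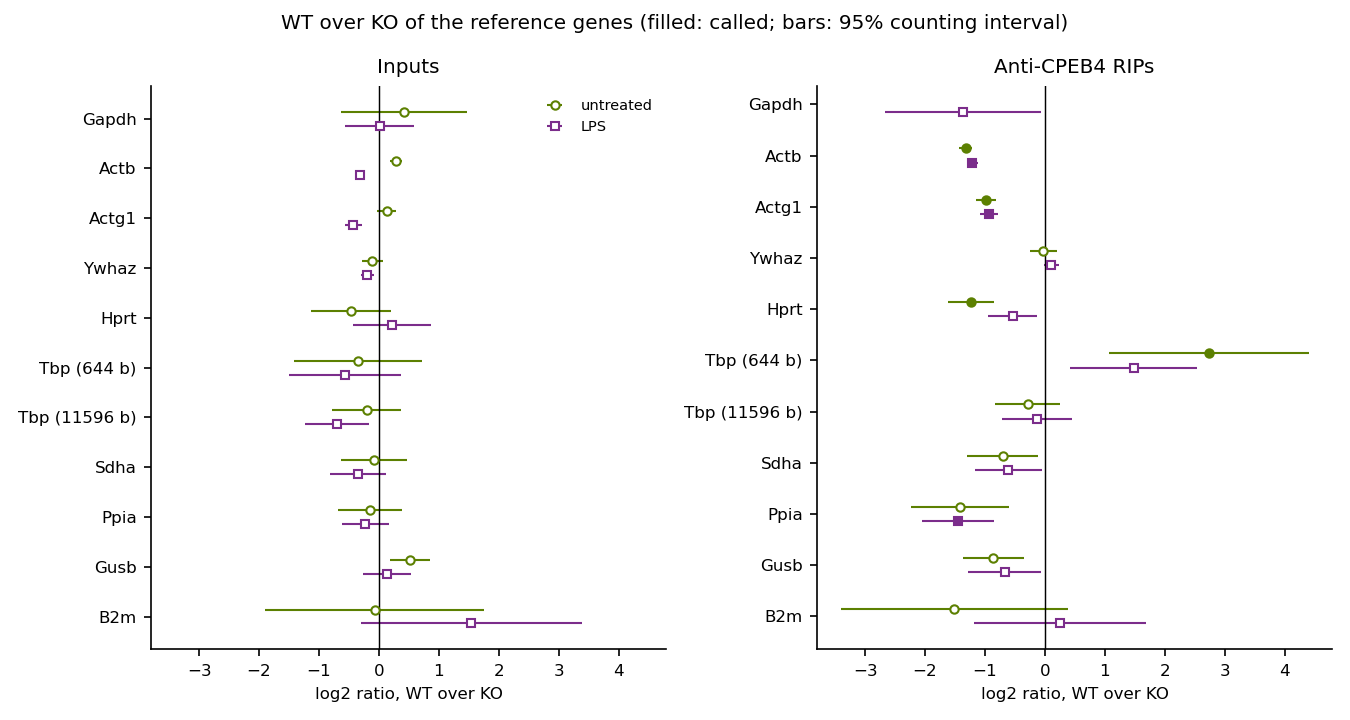
The log2 ratio of WT over KO (x axis) of each reference gene in the Inputs (left) and in the anti-CPEB4 RIPs (right), with bars for the 95% interval of counting error and filled points where the difference was called. Tbp (644 bases) is the member above 0 in the RIPs of both treatments, while Actb and Actg1 lie near -1 in both on 3′-UTR totals. Gapdh has no point for the untreated RIPs, with 2 and 1 reads.

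The WT and KO RIPs were compared next, where the KO lacks the antigen and a negative control should be no higher in the WT. In untreated cells 3 of 8 members tested were called, all lower in the WT (Actb, Actg1 and Hprt), and with LPS 3 of 10, all lower in the WT (Actb, Actg1 and Ppia), where 8.58% and 17.8% of all 3′-UTRs tested were called in either direction. Actb had 1128.5 CPM (WT, 1880 reads) and 2824.5 CPM (KO, 1321 reads) untreated, and 947 CPM (2360 reads) and 2193 CPM (1911 reads) with LPS. Both KO RIPs were above both WT RIPs. The KO RIPs were also shallower, with 467696 and 871482 3′-UTR reads against 1665914 and 2492300 in the WT. Both actins were highest in the shallowest RIP and lowest in the deepest. The part of depth, after duplicate removal, was not tested. The log2 ratio of Actb was -1.32 (-1.43 to -1.22) untreated and -1.21 (-1.30 to -1.12) with LPS. That of Actg1 was -0.99 (-1.16 to -0.82) and -0.94 (-1.09 to -0.79). The sign is relative to the 3′-UTR totals, which were a larger share of the WT than of the KO RIPs. With library totals every RIP ratio is higher by 0.84 untreated and 1.14 with LPS. None of these lower calls was made on that scale, where Actb had -0.48 and -0.07, Actg1 -0.15 and 0.20, Hprt -0.39 untreated and Ppia -0.31 with LPS. Ywhaz in both treatments and the 11596-base region of Tbp with LPS were instead called higher in the WT. With LPS 7 of the 10 members lay above 0 on library totals and 2 on 3′-UTR totals, and Actg1, Tbp (11596 bases), Hprt, Gusb and Sdha changed sign. The regions called over the table went from 560 higher and 743 lower to 3552 and 47 untreated, and from 1145 and 1684 to 6736 and 98 with LPS. With TMM these were 1222 and 394, and 2409 and 843.

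Tbp stood apart from the other members in these RIPs. Its 644-base 3′-UTR had 42.0 CPM (WT, 70 reads) and 4.28 CPM (KO, 2 reads) untreated, and 25.3 CPM (63 reads) and 8.03 CPM (7 reads) with LPS. Both WT RIPs were above both KO RIPs. In the Inputs the same region had 10.8 and 14.3 CPM untreated and 8.43 and 12.7 CPM with LPS, with WT the lower of each pair and differences within counting error. The WT RIP was 6.64-fold above the KO RIP untreated (log2 2.73, 1.07 to 4.40, Benjamini-Yekutieli adjusted p 0.011), which was called, and 2.80-fold above it with LPS (log2 1.48, 0.42 to 2.54, adjusted p 0.0989), which was not called on these totals and was called with library totals and TMM. Corrected for Input, it was 8.46-fold untreated (log2 3.08, 1.11 to 5.06) and 4.16-fold with LPS (2.06, 0.64 to 3.47). The authors' peaks, called for each RIP against its Input, covered this region in both WT RIPs, with MACS scores of 108 and 128, and in neither KO RIP. RIP over Input was 3.60-fold and 2.87-fold in WT cells, both called, and had log2 ratios of -1.23 (-2.98 to 0.52) and -0.54 (-1.72 to 0.65) in KO cells. Both CPEs shown above lie in the 3′-UTR beyond its first 85 bases, a part that had 51 reads (WT) and 1 read (KO) untreated and 47 and 2 with LPS. The first 85 bases hold no consensus or non-consensus CPE. They had 19 and 1 reads untreated (log2 ratio 1.49, -0.61 to 3.59) and 16 and 5 with LPS (-0.01, -1.36 to 1.33). The part of the CPEs was not tested. Peaks overlapped 6.44% and 14.4% of distinct regions in the WT RIPs and 1.05% and 1.13% in the KO RIPs. The scores of Tbp, and those of Hprt and Ywhaz below, are under the score that the study's peak rule for CPEB4-associated mRNAs required. The study also had rules without a peak score.

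The 11596-base region hid this difference. Beyond the shared 644 bases 37 reads of the WT RIP and 34 of the KO RIP lay in it untreated, and 22 and 25 with LPS, with log2 ratios of -1.71 (-2.38 to -1.05) and -1.69 (-2.50 to -0.88). Inner and outer reads thus lay on opposite sides of 0, and the whole region had ratios of -0.29 and -0.13 within counting error of 0. The 3′-UTRs of Pdcd2 that lie in it had at most 4 reads in any library. Where the remaining outer reads came from was not tested. Of the related TFIID genes, 1 of 14 tested was called higher and 0 lower in the WT RIP untreated, and 3 of 15 and 0 with LPS. They were Tbpl1, a TBP-like factor (1.62 untreated and 1.21 with LPS), and with LPS also Taf1 (1.12) and Taf12 (1.83), subunits of TFIID. These shares are close to the 8.58% and 17.8% called of all 3′-UTRs tested. The median log2 ratio of the list was 0.78 untreated and 0.51 with LPS, where those of all 3′-UTRs tested were -0.13 and -0.10.

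Hprt was recovered from both genotypes. Untreated and with LPS in turn, it had 28.0 and 24.2 CPM in the WT Inputs, 39.2 and 20.6 in the KO Inputs, 80.4 and 57.4 in the WT RIPs and 188 and 82.6 in the KO RIPs. The RIPs were above the Inputs of the same cells in all 4 pairs. RIP over Input was 2.79-fold (WT untreated), 2.33-fold (WT LPS), 4.76-fold (KO untreated) and 3.93-fold (KO LPS), each called. Peaks of the authors covered Hprt in all 4 RIPs, with scores of 88.3 and 230 for WT and of 122 and 69.9 for KO. Its WT over KO ratio corrected for Input was -0.77 (-1.54 to 0.00028) untreated and -0.75 (-1.52 to 0.01) with LPS.

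Ywhaz was higher with LPS in the RIPs too, and its WT over KO ratio depended on the scale. Untreated and with LPS in turn, it had 442 and 788 CPM in the WT RIPs (737 and 1963 reads) and 449 and 731 CPM in the KO RIPs (210 and 637 reads). The 2 LPS RIPs were higher than the 2 untreated ones, and WT and KO overlapped. WT over KO was -0.03 (-0.25 to 0.19) untreated and 0.11 (-0.02 to 0.24) with LPS, within counting error of 0 on 3′-UTR totals, and it was 0.82 and 1.25, both called, with library totals. Corrected for Input, also on 3′-UTR totals, it was 0.08 (-0.20 to 0.37) untreated and 0.30 (0.13 to 0.47), with an interval above 0, with LPS. A peak with a score of 233 covered it in the WT LPS RIP alone. Apart from Tbp, Hprt and Ywhaz, no member had a peak in any RIP.

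Gapdh was nearly absent from the RIPs. It had 1.20 and 3.61 CPM in the WT RIPs (2 and 9 reads) and 2.14 and 9.18 CPM in the KO RIPs (1 and 8 reads). The 4 values lay below the 4 Input values of 10.6 to 29.0 CPM. RIP over Input was 0.119-fold (log2 -3.06, -4.86 to -1.27) and 0.136-fold (-2.88, -3.85 to -1.91) in WT cells, both called, and the log2 ratio was -1.40 (-3.53 to 0.73) and -1.50 (-2.54 to -0.47) in KO cells, neither called. No WT over KO ratio is given untreated, where both RIPs had 3 reads or fewer. With LPS it was -1.36 (-2.66 to -0.06). The 2 Gapdh regions, 179 and 178 bases, share their reads.

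**Figure D3:**
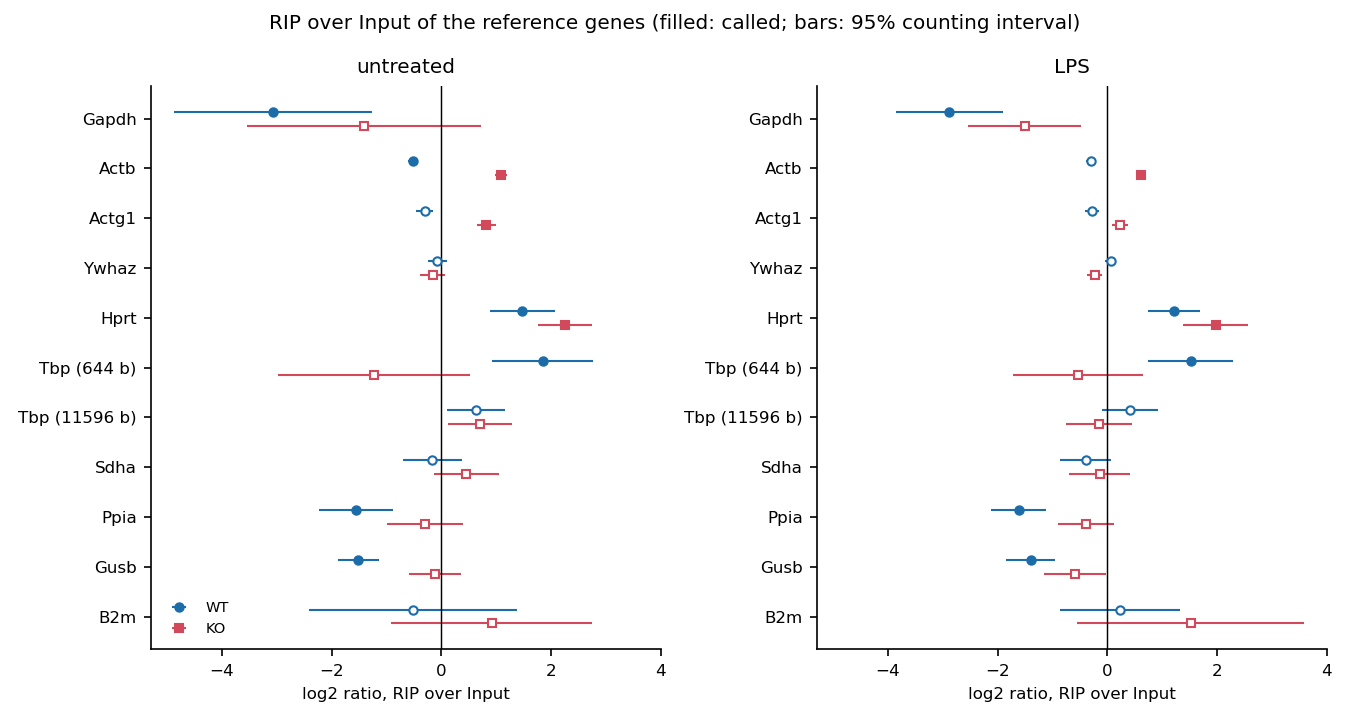
The log2 ratio of RIP over Input (x axis) of each reference gene in WT (circles) and KO (squares) cells, untreated (left) and with LPS (right), with bars for the 95% interval of counting error and filled points where called. WT and KO lie on opposite sides of 0 for Tbp (644 bases), with the WT higher, and Hprt lies above 0 in all 4.

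Recovery, the RIP over its own Input, was taken in each genotype. In WT cells 5 of 9 members tested were called untreated and 4 of 10 with LPS, where 34.5% and 44.1% of all 3′-UTRs tested were. Hprt was higher in the RIP, and Gapdh, Gusb and Ppia were lower in both treatments, with Actb lower untreated. In the KO 3 of 9 were called untreated and 2 of 9 with LPS, where 15.4% and 20.2% of all tested were. All of these were higher in the RIP, namely Actb and Hprt in both and Actg1 untreated. With library totals the calls of Actb and Actg1 in KO cells were lost, and Actb had 0.32 untreated and -0.08 with LPS. Ppia had 48.4 and 55.9 CPM in the WT Inputs and 16.2 and 18.1 CPM in the WT RIPs, a RIP over Input of 0.339-fold and 0.327-fold. In KO cells it had 54.3 and 65.2 CPM in the Inputs and 42.8 and 49.3 CPM in the RIPs, with log2 ratios of -0.29 (-0.99 to 0.41) and -0.38 (-0.90 to 0.13). Gusb had log2 ratios of -1.51 and -1.39 in WT cells, against -0.12 (-0.60 to 0.35) and -0.59 (-1.16 to -0.02) in KO cells. Sdha, a subunit of succinate dehydrogenase, had 37.9 to 50.5 CPM over the Inputs and 28.9 to 68.4 CPM over the RIPs. It was called in none of the 12 comparisons. Its counts were low, and the interval of its LPS response was -0.87 to 0.20 in the WT Inputs and -0.53 to 0.42 in the KO Inputs.

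The RIPs were also compared between treatments. In the WT 3 of 10 members were called and in the KO 3 of 8, where 27.7% and 19.4% of all 3′-UTRs tested were. Ywhaz rose in both (WT 0.83, 0.71 to 0.95, and KO 0.70, 0.47 to 0.92) and Gusb fell in both (-1.17 and -1.37). The 11596-base region of Tbp fell in the WT (-0.91, -1.32 to -0.50), where its 644-base region had -0.73 (-1.22 to -0.24) and was not called. Hprt fell in the KO (-1.18, -1.63 to -0.74) and had -0.49 (-0.83 to -0.15) in the WT. The median of all 3′-UTRs tested was -0.24 for WT and -0.19 for KO. The difference between WT and KO RIPs did not pass a test of its difference between LPS and untreated for any of the 16 member regions with at least 10 reads in each RIP, of 6676 tested regions of which 2.46% passed. For Hprt that difference was 0.70 (0.14 to 1.26, Benjamini-Hochberg adjusted p 0.218). The 644-base region of Tbp was too low in the KO to be tested.

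Lists of related genes were read in the WT and KO RIPs too. Of all 3′-UTRs tested, 8.58% untreated and 17.8% with LPS were called in either direction, with medians of -0.13 and -0.10. Each count here is to be read against these shares. The ratios are on 3′-UTR totals, and with library totals each is higher by 0.84 untreated and 1.14 with LPS. Of 14 other glycolytic genes tested 2 were called higher and 4 lower in the WT RIP untreated, and 2 and 9 with LPS. Hk2 (1.01 and 0.72) and Slc2a1 (1.36 and 0.69) were higher in the WT, while Pkm, a pyruvate kinase (-1.59 and -1.65), and Ldha, a lactate dehydrogenase subunit (-1.37 and -1.34), were lower. The list medians were -0.96 and -1.23. Of 22 actin cytoskeleton genes 2 were higher and 6 lower untreated and 1 and 7 with LPS, such as the thymosin Tmsb4x (-0.89 and -0.98) and cofilin, Cfl1 (-0.68 and -0.89), with medians of -0.23 and -0.34. Of 17 other reference genes tested 0 were higher and 3 lower untreated, and 2 and 4 with LPS. Among these Eef1a1, a translation elongation factor, was lower in both (-1.55 and -1.27), as was the polyubiquitin gene Ubb (-2.83 and -1.86). With LPS the phosphoglycerate kinase Pgk1 (-1.46) was also lower, and Tfrc, the transferrin receptor, was higher (1.39).

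Steadiness over the libraries was described without any scaling. The stability value M of a member is the mean, over the other members, of the standard deviation of the log2 ratio of the 2 over 4 libraries, so that library totals cancel. Over the Inputs Sdha (M 0.42), Actg1 (0.43), Actb (0.44) and Ppia (0.47) had the lowest values, followed by Tbp (0.54), Hprt (0.56), Ywhaz (0.65), Gusb (0.76), B2m (0.83) and Gapdh (0.87). Counting error alone would give 0.29, 0.23, 0.23, 0.29, 0.31, 0.33, 0.23, 0.26, 0.68 and 0.38 for these in the same order. The first 4 thus cannot be ranked by these libraries. Ywhaz and Gusb were 2.81 and 2.88 times the value of counting error, and B2m was 1.21 times it. Over the RIPs the lowest values were those of Actg1 (0.52), Sdha (0.55), Actb (0.58) and Hprt (0.60), and the highest those of Ywhaz (0.95) and Gapdh (1.04). With Tbp represented by its 644-base region, the value of Tbp was 0.49 in the Inputs, 1.13 times counting error, and 1.84 in the RIPs, 3.08 times counting error and the highest of the 10. Members that respond alike, such as Actb and Actg1, lower each other's M.

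**Figure D4:**
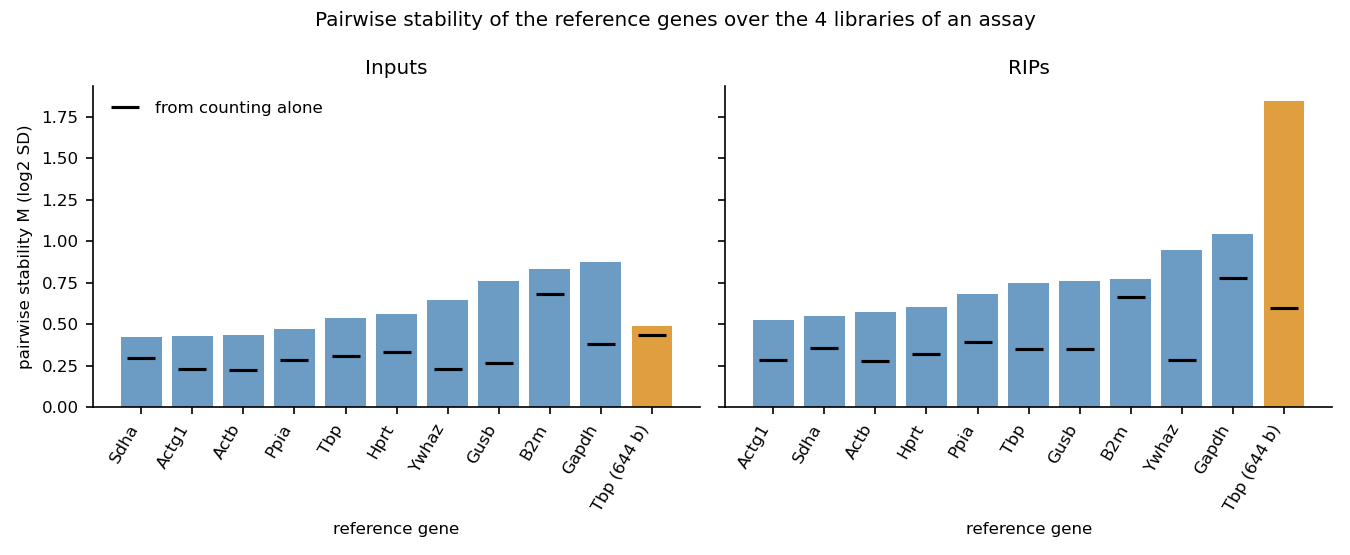
Pairwise stability M (bars, y axis, log2 units, from 0) of the 10 reference genes over the 4 Inputs (left) and the 4 RIPs (right), with a black line at the value that counting error alone gives. The orange bar is Tbp by its 644-base region, which is 0.49 in the Inputs and 1.84 in the RIPs.

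The members were set beside other genes of like read number. Between the lowest and the highest Input, Sdha differed 1.33-fold, Actg1 and Ppia 1.35-fold and Actb 1.39-fold, and 75.9% to 86.6% of genes with a read number within 2-fold of theirs had a larger ratio. Ywhaz differed 1.85-fold, Gusb 2.70-fold and Gapdh 2.75-fold, where 43.7%, 23.5% and 30.8% of such genes had a larger ratio. Over the RIPs the 644-base region of Tbp differed 9.83-fold, and 8.62% of genes of like read number had a larger ratio. Of 516 genes with at least 200 reads in every Input, Actg1 was 148th, Actb 176th and Ywhaz 359th in steadiness. The 5 steadiest were Pxn (1.06-fold), which encodes the focal adhesion protein paxillin, Purb (1.06), Calr (1.06), which encodes calreticulin, Nadk (1.07), an NAD kinase, and Trim35 (1.07). Pxn had 375 to 396 CPM in the Inputs and differed 1.15-fold over the RIPs. These 5 were picked for their low ratio in these libraries, which is a description of them.

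The effect of the choice of reference gene was shown on 6 mRNAs that the study followed, Cpeb4 itself, Txnip, Vegfa, Dusp1, Il1rn and Socs1. The measure is the Input-corrected WT over KO ratio of the target divided by that of the reference gene, which is free of library totals. With LPS, Txnip, a thioredoxin-interacting protein gene, had a log2 value of 2.90 (1.45 to 4.36) against Gapdh, 2.43 against Actb, 2.04 against Actg1, 1.23 (0.88 to 1.58) against Ywhaz and -0.53 (-1.97 to 0.92) against Tbp (644 bases). Dusp1, a phosphatase that turns off MAP kinases, had 2.39, 1.91, 1.52, 0.71 and -1.04 in the same order. Il1rn, the interleukin-1 receptor antagonist, had 1.42, 0.94, 0.55, -0.25 and -2.01. The span from Tbp (644 bases) to Gapdh is 3.43 log2 units for every target by construction, and the sign of the value depended on the reference gene for all 6 with LPS. For Txnip, Vegfa, Dusp1 and Socs1 that rests on the 644-base region of Tbp, taken up after the data were seen. Against the 11596-base region they had 0.96 (0.11 to 1.81), 0.37, 0.45 and 0.67, and no other member gave them a value below 0. Il1rn had -0.52 (-1.32 to 0.28) and Cpeb4 -0.86 (-1.74 to 0.03) against that region.

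Across the 6 targets with LPS the interval lay above 0 for 6 against Actb and Ppia, for 5 against Actg1, Hprt and Gusb, for 4 against Gapdh and Sdha, for 4 with 2 below 0 against Ywhaz, for 1 against Tbp (11596 bases), and for 0 with 2 below 0 against Tbp (644 bases). Untreated, it lay above 0 for 5 against Actb, Actg1, Hprt, Ppia, Gusb and Sdha, for 3 against Ywhaz and Tbp (11596 bases), and for 0 with 2 below 0 against Tbp (644 bases). Gapdh gave no value untreated, with 2 and 1 RIP reads. By their point values, Tbp (644 bases) and Gapdh were thus at the 2 ends of the range of denominators with LPS. The place of Gapdh rests on 9 and 8 RIP reads. Its own Input-corrected log2 ratio of -1.38 (-2.79 to 0.04) could not be told from those of Ppia (-1.23) and Actb (-0.90). The study used both genes as RT-qPCR normalisers of mRNA levels, and Gapdh also as RIP negative control. Its RIP RT-qPCR was shown as enrichment of IP over input, so the ratios here do not restate that result.

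**Figure D5:**
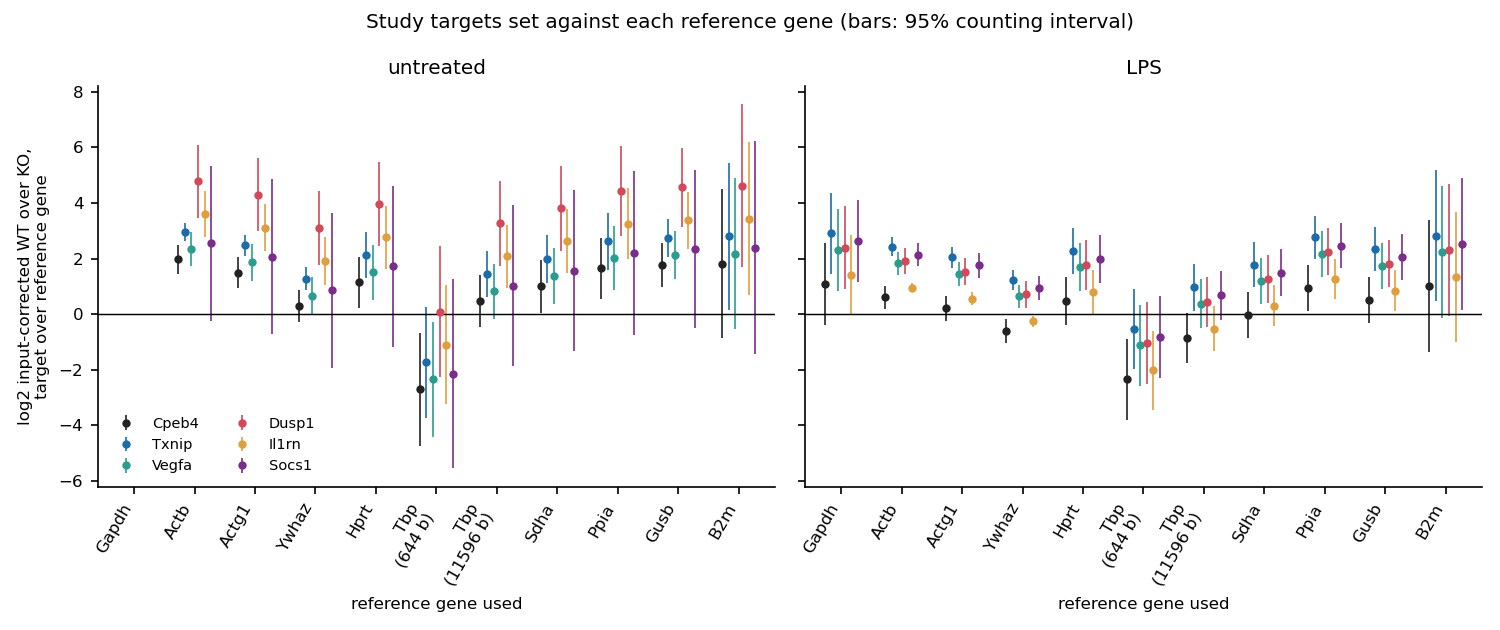
Input-corrected WT over KO ratio (y axis, log2) of 6 target mRNAs (colours), each divided by that of a reference gene (x axis), untreated (left) and with LPS (right), with bars for the 95% interval of counting error. All 6 targets with LPS lie below 0 against Tbp (644 bases) and above 0 against Gapdh, Actb and Actg1. Gapdh has no value untreated.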

How the data were processed

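RNA immunoprecipitation with an anti-CPEB4 antibody and matched Inputs were sequenced as 100-base single-end reads from WT and KO BMDMs, untreated or with LPS. Per the study's methods, the authors aligned reads to mm10 with Bowtie2 (2.2.2), removed duplicates and counted reads over Ensembl 3′-UTRs, and the deposited counts are these raw read numbers per region. The counting used no strand, so overlapping genes on opposite strands cannot be told apart. The authors deposited RPKM of each RIP and its Input, used here only for the library totals they imply. The deposited peak column holds the MACS (1.4.2) score of RIP peaks against Input over each region, called per library, and the motif columns hold the authors' CPE prediction. The tables also hold the authors' fold changes and p-values of RIP against Input, which were not used. All 4 tables hold the same 8 count columns, and 0 columns belonged to other samples. The 2 lanes of a library share 1 count column, so no library has a replicate.

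Rows without a symbol were left out of totals and tests and held 0.902% to 1.04% of reads. Counts were scaled to the 3′-UTR totals over rows with a symbol. Pairs of libraries were compared by a Pearson chi-square test per row with at least 10 reads in the pair, with Benjamini-Yekutieli adjustment over all rows tested (Python 3.11.15, scipy 1.17.1). Calls needed both an adjusted p-value below 0.02 and an absolute log2 ratio, computed after adding 1 read, over 0.5. The 95% intervals take the counting variance with a normal approximation, and ratios were left out where neither library had more than 3 reads. Differences of 2 log2 ratios were tested from the same errors with Benjamini-Hochberg adjustment at 0.05. Each gene was represented by its region with the most reads, and the other distinct regions are shown beside it. The scripts were tested on simulated counts. Alternatives were library totals, TMM (edgeR 4.0.16), median of ratios (DESeq2 1.42.0), Benjamini-Hochberg adjustment, an exact conditional binomial test, an edgeR exact test with an assumed biological variation of 0.2, a minimum of 50 reads, 0.1 reads added, and each region counted once. Taking Tbp by its 644-base region, and nested regions apart, was added after seeing the data.

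Copies of a region were sought in GRCm38.p6 with BLAST+ 2.17.0 for regions of 80 to under 5000 bases, with GENCODE M21 for pseudogenes. Named members are the complete list, and examples from gene lists are called genes. The members and lists were chosen with earlier results of these data known.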

Additional observations from a re-analysis of the deposited data

Results flagged for a closer look

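The LPS response of the cytoplasmic actins in the Inputs differed between WT and KO cells by a test of the difference itself. For Actb the WT log2 ratio minus the KO log2 ratio was -0.5896 over the 683-base region and -0.5761 over the 297-base region nested in it (Benjamini-Hochberg adjusted p 1.7237e-15 and 4.5224e-07, from read counts with 1 library per group). For Actg1 it was -0.5575 over the 700-base and the 699-base regions and -0.5546 over the 357-base region. Regions of a gene share reads and are not independent. Culture and genotype cannot be told apart here, and the part of sequencing depth was not tested.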

How the results depend on the processing

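The largest dependence was on the assumed spread between cultures, which these libraries cannot measure. The edgeR exact test with a biological coefficient of variation of 0.2 called 0 members between LPS and untreated Inputs in both genotypes, between WT and KO RIPs in both treatments, between LPS and untreated RIPs in both genotypes, and between RIP and Input in untreated WT and LPS-treated KO cells. It called 1 member between RIP and Input in LPS-treated WT and in untreated KO cells. Over all regions it called 2 between WT and KO RIPs untreated and 12 with LPS. Benjamini-Hochberg adjustment called 4 members between LPS and untreated KO Inputs and 5 between WT and KO RIPs untreated. With library totals 1 member was called between WT and KO RIPs untreated, 1 between LPS and untreated WT RIPs, and 5 between RIP and Input in LPS-treated KO cells. Median-of-ratios scaling called 1 member, Actg1, between WT and KO Inputs with LPS. Library totals turned the sign of 20 of 119 log2 ratios of members, 18 of them in the 79 that hold a RIP, and the cause is that scaling alone. Of values that had been called, these were Actg1 between WT and KO RIPs with LPS (0.20) and Actb between RIP and Input in LPS-treated KO cells (-0.076). Gusb by its 1236-base region put Txnip, set against it with LPS, at 4.61 instead of 2.34. Of the counts of members called, 104 stayed within 1.5 times, and 600 of the log2 ratios kept their direction and call. No paired analysis was possible because each genotype and treatment had 1 library per assay, and the lane numbers mark runs of the same library. Depth limits Gapdh in the RIPs, B2m everywhere and Tbp in the KO RIPs, where a few reads decide the ratio.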

Other observations

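Within the 3′-UTR of Ywhaz, recovery in the RIP differed along the region in both genotypes. RIP over Input of the 1149 bases next to the stop codon had log2 ratios of 0.35 (0.12 to 0.58) and 0.45 (0.32 to 0.59) in WT cells, untreated and with LPS, while the reads beyond them had -0.66 (-0.92 to -0.40) and -0.39 (-0.54 to -0.25). In KO cells the inner piece had 0.17 and 0.07 and the outer piece -0.63 and -0.64. The inner piece holds 5 of the 6 consensus CPEs and all of the sequence copied in the pseudogene Gm4202, and the part of either was not tested. The LPS response of the Inputs was positive in both pieces, with 0.60 and 0.78 in WT cells.

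Of the purine salvage genes, the pathway of Hprt, 3 of 9 tested rose and 2 fell with LPS in the WT Inputs, and 4 of 10 rose and 2 fell in the KO Inputs, where 22.5% and 26.2% of all 3′-UTRs tested were called. The list medians were 0.42 over the 9 genes tested in the WT and -0.42 over the 10 tested in the KO, which are not the same set. Pnp, a purine nucleoside phosphorylase, had log2 ratios of 1.73 and 2.05, and Gda, the guanine deaminase, 2.26 and 1.66. Hprt was not called in either.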
